A study of Mus musculus with 2 samples.

Results

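The genes described here are 10 genes that guide the axons of olfactory sensory neurons or sort them into glomeruli, seen through the chromatin boundaries of neurons with the odorant receptor Olfr1507 (MOR28). They were chosen by name and located in the GENCODE M21 annotation of GRCm38, which holds all 10 of them among its 21755 protein-coding genes on chromosomes 1 to 19 and X. The study mapped DNA contacts by in situ Hi-C in 1 group, with no second group for comparison. That group was mature olfactory sensory neurons, taken from olfactory epithelium and sorted for GFP. The mice were MOR28-GFP adults of both sexes on the 129P2/OlaHsd strain, and were not treated. The group had 2 biological replicates of 170000 and 220000 cells, which the authors merged into 1 contact matrix before calling boundaries. The labels do not say how many mice were pooled in a replicate. A boundary is a 5000 bp stretch across which few contacts pass, and the authors gave each a strength score and a class, strong from 0.5 upward and weak below. The list of 7367 boundaries holds no expression values, so the labelled cell type was not checked here against marker genes, and no value below has a replicate error.

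Axons of olfactory sensory neurons with the same receptor gather in the same few glomeruli of the olfactory bulb, and both secreted cues and adhesion molecules guide them. Secreted semaphorins such as Sema3a and Sema3f can repel axons through neuropilins, which bind them, and plexins, which pass the signal on. Robo receptors respond to Slit proteins, ephrins act on Eph receptors between touching axons, and Kirrel proteins hold like axons together. In the mouse, Nrp1 and Sema3a take part in the sorting of axons on their way to the bulb, and Nrp2 and Sema3f in their order from dorsal to ventral.

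Of the 10 genes, 4 had their transcription start site (TSS, the 5′ end of the gene model) within 10 kb of a boundary interval, and in each of these the boundary lay just upstream of the gene. They were the semaphorin receptor genes Nrp1, Nrp2 and Plxna1 and the ephrin gene Efna5. Over all protein-coding genes 13.0% had a TSS that close to a boundary, and of those of at least 100 kb 14.2% did. The 4 boundary midpoints lay 4.88 to 6.18 kb before the TSS, while the nearest boundary was upstream in 54.8% of all protein-coding genes with a TSS within 10 kb of one and in 62.1% of those of at least 100 kb. None of the 4 starts lay inside the boundary interval itself. Of the other genes, Robo2 started 15.7 kb from a boundary before the gene and Kirrel3 16.6 kb from a boundary inside it. Kirrel2 and Sema3f lay well inside gene-rich intervals, and Sema3a and Epha5 were the only protein-coding genes to start in intervals of 1090 and 1040 kb.

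**Figure D1:**
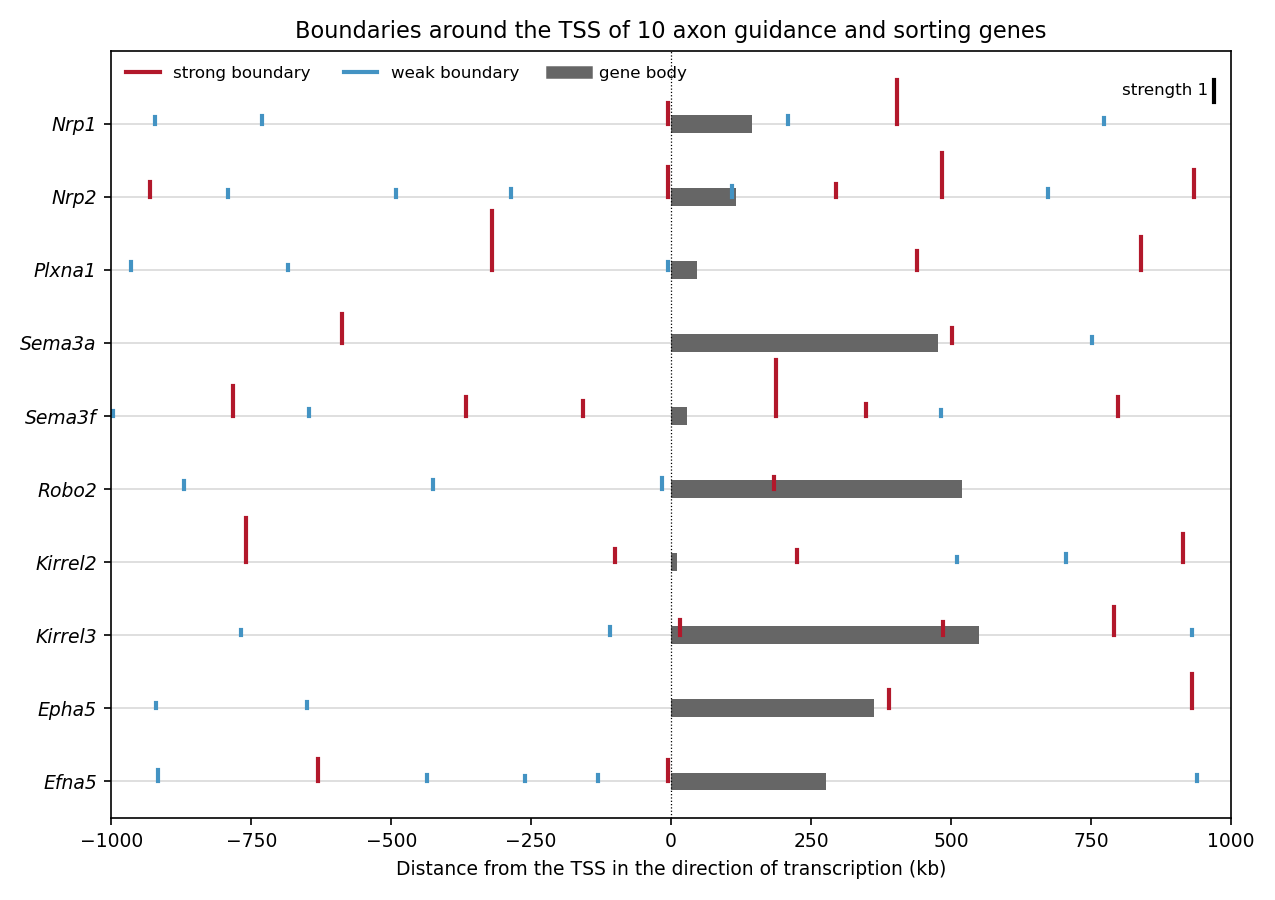
Each row is a gene, drawn in its direction of transcription with its body as a grey bar, and the x axis is the distance from the TSS in kb. Vertical ticks are boundaries, with heights in proportion to the authors' strength and red for strong and blue for weak ones. Boundaries stand 4.88 to 6.18 kb before the start of Nrp1, Nrp2, Plxna1 and Efna5, and none stands in the bodies of Sema3a, Epha5 or Efna5.

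The RefSeq promoter table for GRCm38.p6 had entries for 7 of the 10 genes, and Plxna1, Sema3f and Kirrel3 had none. The stretches before the start of 3 genes with an upstream boundary are shown with that of Epha5, whose start lay far from any boundary. Each is the reference sequence of the C57BL/6J strain, written along the gene's own strand, up to 250 bases long and ended before annotated untranslated or coding sequence. Capitals mark the GC box GGGCGG and the homeodomain core TAATTA on either strand, and overlapping GC boxes run together. The stretch for Nrp1 ends at the start given by its promoter entry, inside the GENCODE model. That end lies in an intron of a noncoding transcript that starts at 128358604. The RefSeq gene record of Nrp1 starts at 128358591, before the stretch.
Nrp1 (chr8:128358823-128359072, forward strand): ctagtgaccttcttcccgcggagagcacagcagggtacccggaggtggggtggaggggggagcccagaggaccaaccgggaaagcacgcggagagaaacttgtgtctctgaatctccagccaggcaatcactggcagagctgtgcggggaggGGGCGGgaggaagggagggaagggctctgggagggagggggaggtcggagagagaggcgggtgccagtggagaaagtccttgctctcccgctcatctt
Nrp2 (chr1:62703067-62703284, forward strand): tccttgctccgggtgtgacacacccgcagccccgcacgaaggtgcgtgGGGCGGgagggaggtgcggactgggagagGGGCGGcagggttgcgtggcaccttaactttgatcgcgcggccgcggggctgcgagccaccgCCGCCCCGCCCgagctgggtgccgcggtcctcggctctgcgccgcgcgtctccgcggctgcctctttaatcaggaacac
Efna5 (chr17:62881318-62881567, reverse strand): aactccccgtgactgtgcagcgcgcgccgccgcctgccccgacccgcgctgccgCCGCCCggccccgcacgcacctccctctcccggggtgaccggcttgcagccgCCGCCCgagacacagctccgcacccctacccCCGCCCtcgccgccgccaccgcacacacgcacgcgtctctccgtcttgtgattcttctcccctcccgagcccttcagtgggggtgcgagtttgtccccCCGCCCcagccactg
Epha5 (chr5:84417383-84417632, reverse strand): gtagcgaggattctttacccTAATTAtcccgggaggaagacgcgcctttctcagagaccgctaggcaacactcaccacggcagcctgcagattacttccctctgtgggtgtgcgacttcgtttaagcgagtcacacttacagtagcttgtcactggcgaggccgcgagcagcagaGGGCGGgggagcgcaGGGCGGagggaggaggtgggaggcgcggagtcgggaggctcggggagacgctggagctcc
GC boxes numbered 4 in the stretch shown for Nrp2, 4 in that for Efna5, 1 in that for Nrp1 and 2 in that for Epha5, and 32.7% of the 32851 promoters in the table held at least 1 in the 250 bases before the start. TAATTA was found before Epha5 alone among the 4, against 4.84% of all promoters. Neither the TATA box TATAAA (12.4% of all promoters), nor CCAAT (33.8%), nor the Ebf motif (0.779%) was in any of the 4, on either strand. Of the genes with an entry but not shown, Kirrel2 had 1 GC box in the 250 bases before its start. Sema3a and all 3 starts of Robo2 had no GC box, and none of these genes had any of the other motifs. The 250 bases before the start given by the promoter entry had a GC content of 74.8% for Efna5 and 72.4% for Nrp2. They had 64.4% for Nrp1 and 62.4% for Epha5, against a median of 52.4% over all promoters. Kirrel2 had 56.4%, and Sema3a, whose promoter entry starts at 13396784, had 40.8%. The RefSeq gene record of Sema3a starts elsewhere, at 13124822. Robo2 has 3 starts among the promoter entries, with 65.6% at the one 15.7 kb from a boundary. It had 53.2% at the one 135 kb away and 44.8% at the one 190 kb away.

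Nrp1 and Nrp2, the neuropilins that bind class 3 semaphorins, resembled each other at their starts. Nrp1 (ENSMUSG00000025810.9) spans 128358604 to 128503363 on the forward strand of chromosome 8. Its upstream boundary, at 128350001 to 128355000, was strong with a strength of 0.969 and had its midpoint 6.10 kb from the TSS. Nrp2 (ENSMUSG00000025969.15) spans 62703285 to 62818695 on the forward strand of chromosome 1. Its upstream boundary, at 62695001 to 62700000, was the strongest at any start among the 10 genes, with a strength of 1.38, and had its midpoint 5.79 kb from the TSS. No annotated gene overlapped either boundary interval, and the neuropilin was the protein-coding gene with the nearest start to each.

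The neuropilins differed further along the gene. Nrp1 held no boundary in its 145 kb, and the interval that began before its start ran 215 kb, past its 3′ end, to a weak boundary with a strength of 0.355. Nrp2 lay almost wholly in an interval of 115 kb, at the 3.46th percentile of the 7347 intervals between neighbouring boundaries. The closing boundary of that interval, at 62810001 to 62815000, was weak with a strength of 0.484, lay 6.20 kb short of the 3′ end, and overlapped exon sequence of Nrp2. Its midpoint was in intron 15 of the longest coding transcript, which has 17 exons.

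Plxna1 (ENSMUSG00000030084.11), a signalling partner of the neuropilins, spans 89316314 to 89362620 on the reverse strand of chromosome 6. Its upstream boundary, at 89365001 to 89370000, was the closest of all to a start, 4.88 kb away, but weak with a strength of 0.380. The nearest strong boundary was 320 kb from the start. Downstream the interval reached 440 kb to a strong boundary with a strength of 0.877, so the gene of 46.3 kb filled a small part of an interval of 445 kb. No other protein-coding gene started in that interval.

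The semaphorin genes Sema3a and Sema3f, which encode secreted ligands of these receptors, had no boundary near their starts. Sema3a (ENSMUSG00000028883.17) spans 13125414 to 13602565 on the forward strand of chromosome 5 and held no boundary in 477 kb. Of 230 protein-coding genes of similar length 67.8% had at least 1. In the open-ended length class over 400 kb, which includes much longer genes, 79.7% of 354 did. The Sema3a start was 502 kb from the nearest boundary, at the 97.5th percentile of all protein-coding genes. Its interval of 1090 kb was the longest of the 10. Both flanks of that interval were strong. The one upstream (strength 1.31, at 12535001 to 12540000) lay inside Sema3d, the neighbouring semaphorin gene, and the one downstream (0.677, at 13625001 to 13630000) lay 24.9 kb past the 3′ end of Sema3a. The 5′ end of this gene model comes from noncoding transcripts. The longest coding transcript starts at 13399309, 274 kb further in and 228 kb from the nearest boundary, in the same interval. That transcript spans 203 kb, and 53.1% of protein-coding genes of 200 to 400 kb held a boundary.

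Sema3f (ENSMUSG00000034684.12) spans 107681500 to 107710475 on the reverse strand of chromosome 9, in an interval of 345 kb where 16 other protein-coding genes start. Its relative Sema3b starts there too, 101 kb away. The nearest other starts were those of Gnat1, the rod transducin gene (30.8 kb), Slc38a3 (40.9 kb) and Rbm5 (60.5 kb). On the downstream side the interval ended at the strongest boundary that flanked any of the 10 starts, at 107520001 to 107525000. That boundary had a strength of 2.57, rank 39 of 7367, lay 188 kb from the Sema3f start inside Cacna2d2, and was nearest to the start of Tmem115. On the upstream side it ended 157 kb away at a strong boundary (0.666) in Rbm6.

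Robo2 (ENSMUSG00000052516.19), a Slit receptor gene, spans 73891839 to 74411825 on the reverse strand of chromosome 16 and was divided by a boundary. That boundary, at 74225001 to 74230000, was strong by a small margin, at 0.537. It lay 184 kb from the start, in intron 2 of a coding transcript with 29 exons, and overlapped no exon. The first 35.4% of the gene lay on one side of it, in an interval of 200 kb, and the rest in an interval of 1230 kb, at the 98.6th percentile. That long interval ended at a strong boundary with a strength of 1.22 inside Robo1, a gene of the same family. The boundary before the start was weak, with a strength of 0.485, and 15.7 kb away. RefSeq gives Robo2 a longer model, of 1555 kb, whose start is 135 kb from the nearest boundary and whose body holds 4 boundaries.

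The Kirrel genes encode adhesion molecules of the immunoglobulin superfamily that bind their own kind, and they sat in opposite surroundings. Kirrel3 (ENSMUSG00000032036.15) spans 34485894 to 35036716 on the forward strand of chromosome 9 and held 2 boundaries, both strong. The first, at 34500001 to 34505000 with a strength of 0.679, was in intron 1, 16.6 kb from the start. The second, at 34970001 to 34975000 with a strength of 0.588, was in intron 3 and 88.3% of the way along the gene. The 470 kb between them made up 85.3% of the gene, so the start and the last part of the gene each lay in another interval than most of its body. Upstream, the interval of the start ended 108 kb away at a weak boundary with a strength of 0.392. Among protein-coding genes of at least 100 kb 7.71% held 2 or more, while those over 400 kb, the length class of Kirrel3, held 1.43 boundaries on average. The 161 protein-coding genes of similar length to Kirrel3 held 1.04 on average.

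Kirrel2 (ENSMUSG00000036915.17), of 10.16 kb, spans 30447534 to 30457690 on the reverse strand of chromosome 7. Its interval of 325 kb held the starts of 18 other protein-coding genes. The closest was Nphs1, which encodes the related protein nephrin and starts 0.625 kb away on the opposite strand, followed by Aplp1 (12.2 kb) and Prodh2 (35.9 kb). The nearest boundary was 99.8 kb upstream, with a strength of 0.578, and the downstream one was 225 kb away, with a strength of 0.570. The upstream boundary had the starts of 7 protein-coding genes in its window of 10 kb on each side, and the downstream one those of 3.

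Epha5, an Eph receptor gene, and Efna5, the gene of an ephrin ligand of its class, were each the only protein-coding gene to start in a long interval, at different places in it. Epha5 (ENSMUSG00000029245.16) spans 84054761 to 84417382 on the reverse strand of chromosome 5. Its start was 390 kb from the nearest boundary, at the 96.5th percentile of all protein-coding genes, and its interval was 1040 kb long. The nearest boundary, strong at 0.817, lay 27.3 kb past the 3′ end, and the one upstream of the start was weak at 0.283 and 650 kb away. Efna5 (ENSMUSG00000048915.12) spans 62604184 to 62881317 on the reverse strand of chromosome 17. Its start lay 6.18 kb from the boundary at 62885001 to 62890000, a strong one (0.984), and its interval then ran 945 kb to a weak boundary with a strength of 0.283. Neither gene held a boundary. In the length class of 200 to 400 kb, to which both belong, 53.1% of 644 protein-coding genes had at least 1.

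**Figure D2:**
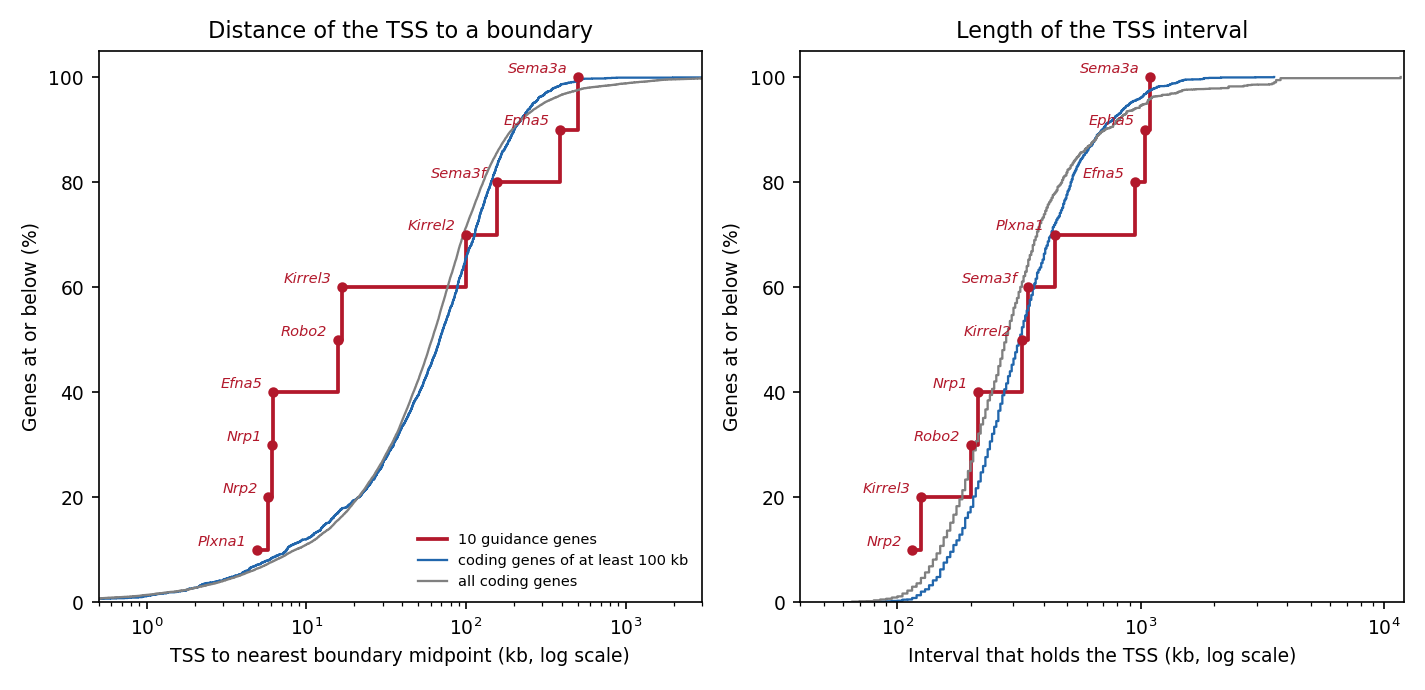
The left plot gives the distance from the TSS to the nearest boundary midpoint and the right plot the length of the interval that holds the TSS, both in kb on log scales, as the percentage of genes at or below each value. Red steps and labelled points are the 10 genes, the blue line protein-coding genes of at least 100 kb and the grey line all protein-coding genes. In the left plot 6 of the 10 points lie at 4.88 to 16.6 kb, left of both lines, and Epha5 and Sema3a lie farthest out at 390 and 502 kb.

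The distances of the 10 starts to a boundary fell into a near and a far set. The near set ran from 4.88 to 16.6 kb (Plxna1, Nrp2, Nrp1, Efna5, Robo2 and Kirrel3) and the far set from 99.8 to 502 kb (Kirrel2, Sema3f, Epha5 and Sema3a). The median was 16.1 kb over the 10 genes, and 61.1 kb over all protein-coding genes with quartiles of 27.5 and 111 kb. With the window widened to 25 kb, 6 of the 10 had their start at a boundary, against 25.0% of all protein-coding genes. At strong boundaries and within 10 kb the count was 3, namely Nrp1, Nrp2 and Efna5, against 8.39%. With RefSeq gene models the median was 58.3 kb, through the longer Robo2 model, and with strong boundaries alone it was 128 kb, against 102 kb over all protein-coding genes.

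The intervals that held the starts ranged from 115 to 1090 kb. In order they were 115 kb for Nrp2, 125 kb for Kirrel3, 200 kb for Robo2, 215 kb for Nrp1, 325 kb for Kirrel2, 345 kb for Sema3f, 445 kb for Plxna1, 945 kb for Efna5, 1040 kb for Epha5 and 1090 kb for Sema3a. The last 3 were above the 96th percentile of all intervals, and Nrp2 and Kirrel3 below the 6th. Short and long intervals alike depended on weak boundaries where a flank was weak. With strong boundaries alone Kirrel3 started in an interval of 1390 kb, Robo2 in one of 1355 kb and Nrp2 in one of 300 kb. Efna5 then started in one of 3295 kb, Epha5 in one of 1505 kb, Plxna1 in one of 760 kb and Nrp1 in one of 410 kb. The intervals of Sema3a, Sema3f and Kirrel2 stayed the same. The median was 335 kb over the 10 genes and 280 kb over all protein-coding genes. An interval of at least 900 kb, a length chosen after the values were seen, held the start of 6.38% of all protein-coding genes and of 5.1% of those of at least 100 kb.

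Most of the guidance genes were the only protein-coding gene to start in their interval. This held for 8 of the 10, all but Sema3f and Kirrel2, against 8.72% of all protein-coding genes. Long genes more often start alone, and among those of at least 100 kb 37.7% did, while all 7 guidance genes of that length did. GC content of the intervals varied widely among the genes. It was 35.9% in the interval of Epha5, 36.6% in that of Sema3a and 36.8% in that of Robo2, all below the 4th percentile of the intervals, and 39.5% in that of Efna5. It was 42.3% in that of Nrp1, 43.7% in that of Kirrel3 and 46.9% in that of Nrp2. It was 50.04% in that of Kirrel2, 48.9% in that of Plxna1 and 48.2% in that of Sema3f, against a median of 42.6% over all intervals. High values were found both where the gene started alone, as Plxna1 did, and among many other starts, as for Kirrel2 and Sema3f.

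A boundary midpoint lay in the body of 3 genes, Nrp2 (1), Robo2 (1) and Kirrel3 (2), against 12.7% of all protein-coding genes. All 3 are among the 7 guidance genes of at least 100 kb, and in that length range 44.5% of protein-coding genes held a boundary. The same 3 genes had their start and 3′ end in different intervals, against 44.4% of those long genes. The 10 bodies, 2533 kb in sum, held 4 boundaries. That is a density of 1.58 per Mb, where all protein-coding genes had 2.85. The 7 long ones held 1.63 per Mb, against 2.18 per Mb in protein-coding genes of at least 100 kb. With RefSeq gene models the 10 bodies held 7 boundaries, through the longer Robo2 model. Of the 4 boundaries 1 overlapped an exon of its gene, the weak one near the 3′ end of Nrp2.

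**Figure D3:**
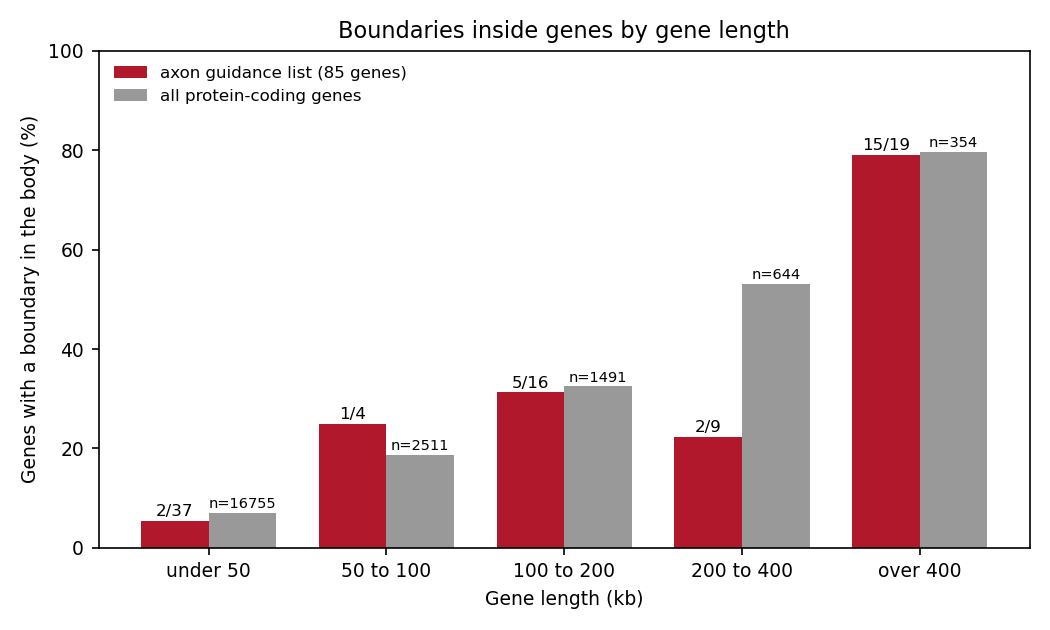
Bars give the percentage of genes with a boundary midpoint in the body, by gene length in kb, for an axon guidance list of 85 genes (red, with counts) and all protein-coding genes (grey, with the number of genes). The share climbs with length in the grey bars, to 79.7% over 400 kb. At 200 to 400 kb the red bar stands at 2 of 9 genes, with Epha5 and Efna5 among the 9, and the grey bar at 53.1%. From short to long, the red and grey bars of the other classes are 5.41% and 7.08%, 25% and 18.8%, 31.3% and 32.5%, and 78.9% and 79.7%. Of the listed genes of at least 100 kb 22 of 44 held a boundary (50%), against 44.5% of all protein-coding genes of that length.

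The starts of the 10 genes were flanked by 20 distinct boundaries, of which 13 were strong (65% against 55.0% of all boundaries), with strengths of 0.283 to 2.57 and a median of 0.622. The stronger flank was upstream for 5 genes (Nrp1, Nrp2, Sema3a, Kirrel2 and Efna5) and downstream for the other 5, and it was upstream for 51.6% of all protein-coding genes. Both flanks were strong for 3 genes, Sema3a, Sema3f and Kirrel2, against 39.4% of all protein-coding genes. The sides differed widely at Sema3f (0.666 upstream and 2.57 downstream), Nrp2 (1.38 and 0.484) and Efna5 (0.984 and 0.283), and little at Kirrel2 (0.578 and 0.570).

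**Figure D4:**
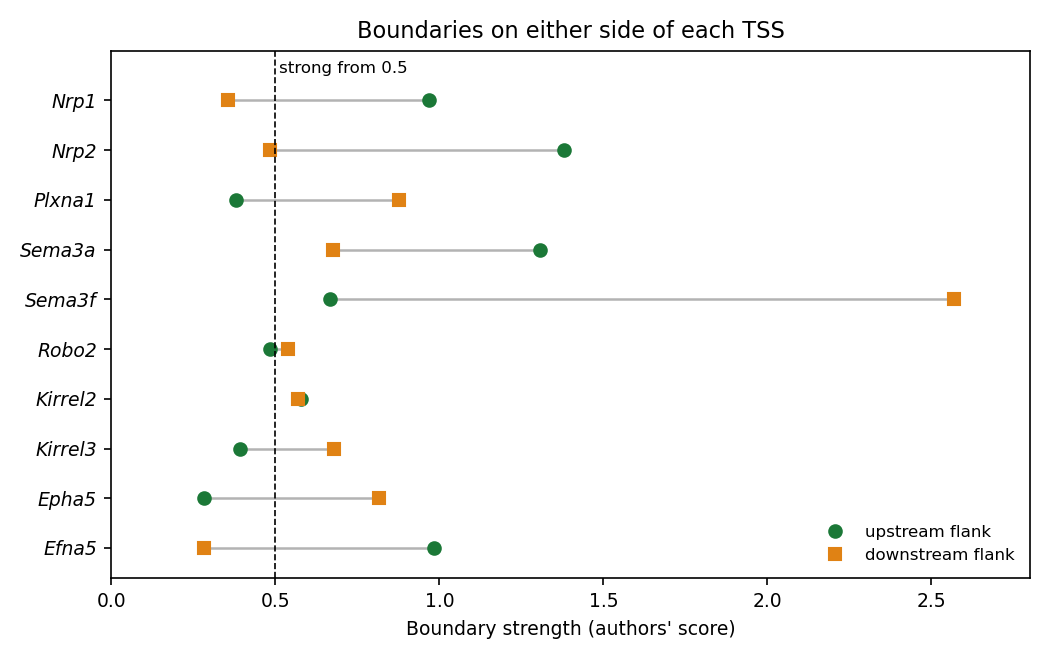
For each gene the x axis gives the authors' strength of the boundary on the upstream (green circle) and downstream (orange square) side of the TSS, and the dashed line marks the strong threshold of 0.5. Efna5 and Epha5 are near mirror images, with the strong flank (0.984 and 0.817) upstream for Efna5 and downstream for Epha5 and a weak flank of 0.283 on the other side.

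CTCF is a DNA-binding protein known to hold many boundaries. A consensus of 12 bases for its motif was searched on both strands from 10 kb before to 10 kb after each boundary interval. Only exact matches to the consensus were counted, so a boundary without a match may still hold another form of the motif. A match was found at 6 of the 24 boundaries inside the 10 genes or next to their starts or 3′ ends (25%). Of all 7367 boundaries 23.9% had one. None of the 4 boundaries inside the genes had a match, and none of those just upstream of Nrp1, Nrp2, Plxna1 and Efna5 had one. The 6 with a match were all outer flanks and all strong. Over all boundaries, 30.2% of the strong and 16.2% of the weak ones had a match. Matches are shown for Sema3a, whose flanks both had them, and for the downstream flank of Plxna1. Each is written with 20 bases on each side, along the strand of the match and with the match in capitals.
Sema3a, upstream flank (chr5:12541462-12541513, reverse strand): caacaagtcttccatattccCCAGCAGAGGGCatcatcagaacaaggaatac
Sema3a, downstream flank, first match (chr5:13629224-13629275, reverse strand): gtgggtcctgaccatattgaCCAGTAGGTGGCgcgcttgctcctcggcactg
Sema3a, downstream flank, second match (chr5:13630856-13630907, reverse strand): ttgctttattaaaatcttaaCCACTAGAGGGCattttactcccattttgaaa
Plxna1, downstream flank, first match (chr6:88916179-88916230, reverse strand): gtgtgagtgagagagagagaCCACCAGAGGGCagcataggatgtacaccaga
Plxna1, downstream flank, second match (chr6:88916302-88916353, reverse strand): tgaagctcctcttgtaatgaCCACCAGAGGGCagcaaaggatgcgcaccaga
The matches at the downstream flank of Sema3a lay 1.74 and 3.38 kb from its midpoint. Those at Plxna1 lay 6.30 and 6.18 kb from the midpoint. A match is a description of the reference sequence and no evidence that CTCF bound there.

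A wider list of 85 axon guidance and sorting genes, which includes the 10, gave their relatives. A start lay within 10 kb of a boundary in 16 of the 85 (18.8%) and in 12 of the 75 without the 10 (16.0%), against 13.0% of all protein-coding genes. Among neuropilins and plexins it was 5 of 11, with Plxna4 (9.31 kb from the midpoint of a boundary with a strength of 2.54) and Plxnd1 (12.5 kb, 0.637) beside Nrp1, Nrp2 and Plxna1. Among their semaphorin ligands it was 1 of 20, Sema6a (3.63 kb, 0.938). These family shares include the 10 genes, so Nrp1, Nrp2 and Plxna1 are counted again here. Whether these shares differ was not tested. Among ephrins and Eph receptors it was 5 of 22, namely Efna5, Efna2 (1.12), Epha4 (0.702), Epha10 (0.656) and Epha7 (weak, 0.265), and among Slits and Robos none of 7.

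The 22 ephrin and Eph genes had a median interval of 292.5 kb, against 280 kb over all protein-coding genes. Of the 22, 6 started in an interval of at least 900 kb, the length chosen after the values were seen, as did 12 of the 85 genes and 6.38% of all protein-coding genes. The 6 were Epha4 (1195 kb), Epha7 (1120 kb), Epha5 (1040 kb), Epha3 (1015 kb), Ephb6 (1010 kb) and Efna5 (945 kb). In their bodies 4 of the 22 held a boundary, against 12.7% of all protein-coding genes. Among the 8 of at least 100 kb 2 did, against 44.5% of all protein-coding genes of that length. Epha6 held 4 in 952 kb, and Efnb2, Ephb1 and Ephb4 held 1 each. Robo1, like Robo2, was divided, by 2 strong boundaries in 738 kb. Both genes are over 400 kb, a length class in which 79.7% of protein-coding genes held a boundary. Of 188 protein-coding genes of similar length to Robo2 70.7% did. Kirrel, the third gene of the Kirrel family, held none in 96.2 kb and started 27.8 kb from a boundary.

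Genes with the most similar boundary pattern were sought among 21528 other protein-coding genes, by 5 measures (gene length, boundaries in the body, TSS distance, interval length and the higher flank strength), each divided by its SD over genes. The closest likeness was that of Kirrel2 to Olfr1564 on chromosome 17, at a distance of 0.0848. Sema3f was nearest to Vipas39 (0.151), Robo2 to Fam110b (0.179) and Epha5 to Itgbl1 (0.225). Plxna1 was nearest to Carf (0.303), Nrp1 to Igsf5 (0.345) and Efna5 to Tmem132b (0.417). The patterns of Kirrel3 (Slc44a5, 0.4498), Nrp2 (4931422A03Rik, 0.480) and Sema3a (Fam172a, 0.501) had the most distant nearest genes. Such nearest distances were not computed for other protein-coding genes, so these values have no background to be set against.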

How the data were processed

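In situ Hi-C contacts were measured in 2 biological replicates of 1 group of sorted neurons, fixed with 1% formaldehyde and cut with DpnII, per the labels. Per the series design text, the authors combined the contacts on GRCm38 and called boundaries from the combined matrix. The strength that the authors deposited is a score. The sources used here do not give its scale, the boundary caller or the aligner. The list holds no counts, so the depth behind a boundary is unknown, and no interval or test could be computed. No value has a replicate error.

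Boundaries were joined to GENCODE M21 genes and the GRCm38.p6 sequence, of C57BL/6J and not 129P2/OlaHsd mice, with Python 3.11.15, numpy 2.4.6 and pandas 2.3.3. Distances run to boundary midpoints. A start counted as at a boundary within 10 kb of its interval, and a boundary as inside a gene by its midpoint. Measures were tested on simulated data with planted boundaries. The 10 genes are described beside all 21755 protein-coding genes and the 2489 of at least 100 kb, with no test. Named genes were the 10, up to 3 starts nearest to each in its interval, genes nearest to flanking boundaries, relatives and the leading genes of the 85-gene list, and the most similar gene. Genes, lists and alternatives were chosen with earlier results of these data known. Contact lists and matrices were not used here.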

Additional observations from a re-analysis of the deposited data

How the results depend on the processing

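Of 29 recomputed values, 19 stayed within 1.5 times, counts exactly 1.5 times apart included. With strong boundaries alone 2 genes held a boundary, Robo2 and Kirrel3, and Nrp2 did not (7.91% of all protein-coding genes did). The same 2 held one when the interval widened by 10 kb had to lie wholly inside the gene (5.47%). With the strongest 25% of boundaries (1842) the genes with a boundary inside were 0 (3.31% of all protein-coding genes), with 0 boundaries in their bodies, and 2 starts were within 10 kb of one, those of Nrp2 and Efna5 (3.97%). The median TSS distance was then 496 kb (281 kb over all protein-coding genes) and the median interval 1765 kb (1375 kb). With strong boundaries alone the median distance was 128 kb (102 kb) and the median interval 925 kb (480 kb). Counting the boundary interval alone, 0 starts were at a boundary (3.45%). With RefSeq gene models, chosen after seeing the data, the bodies held 7 boundaries and the median distance was 58.3 kb, both through Robo2. Within 25 kb of a boundary there were 6 starts (25.0% of all protein-coding genes). No paired analysis was possible because both replicates were combined in 1 list of 1 group, and for the same reason no replicate could be left out. The depth of the map, which limits the weak boundaries that it can show, is unknown.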

Other observations

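All 4 genes of the teneurins, large adhesion proteins that match axons with their targets, held boundaries, in the length class over 400 kb in which 79.7% of all protein-coding genes did. Tenm2 held 5 boundaries in 1229 kb, 3 of them strong, the most of the 85 genes in the wider list. Tenm3 held 2, and Tenm1 and Tenm4 held 1 each. The starts of Tenm2 (8.46 kb from a midpoint, strength 0.569) and Tenm3 (6.45 kb, 0.211) were at boundaries. Tenm2 started in an interval of 2140 kb, the longest of the list. Ncam2, an adhesion gene known from olfactory axons and dendrites, held 1 weak boundary in 426 kb and started in an interval of 135 kb. Ncam1 held none in 297 kb and started 3.58 kb from a weak boundary (0.261).

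Netrin and netrin receptor genes, named here after their values were seen, were mixed. Of 13, 6 held a boundary, against 12.7% of all protein-coding genes, and among the 8 of at least 100 kb 5 did, against 44.5%. A start was at a boundary in 2, against 13.0%. These were Dscam (3.25 kb, 0.499) and Unc5b (5.92 kb, 0.446), both weak. Unc5d held none in 573 kb and started in an interval of 1335 kb, whereas Dscam, of 580 kb, held 2 and started in an interval of 140 kb. In the class over 400 kb 15 of 19 genes of the list held a boundary, against 79.7% of all protein-coding genes of that length. The 4 without one were Sema3a, Plxna4, Sema5a and Unc5d.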
